A study of Rattus norvegicus with 8 samples.

Results

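Mamdc2, Nt5dc1 and Tor1b each had a probe set that gave signal in the glomeruli of one rat strain and little signal in those of the other. Mamdc2 and Nt5dc1 gave the signal in Dahl rats and Tor1b in SHR rats. The strain differences on the log2 scale, Dahl minus SHR, were 4.27 for Mamdc2, 3.99 for Nt5dc1 and -2.96 for Tor1b. These are the probe sets that the selection picked for that difference, so the sizes are a description and were not tested. For Nt5dc1 and Tor1b a further probe set of the same gene gave clear signal in both strains, and its values overlapped between them. The data therefore do not show these genes as off in either strain, and they are described here by the values that chose them.

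Glomerular RNA was measured on Affymetrix rat genome arrays, on which a set of short oligonucleotides (a probe set) reads a transcript, and a gene can have several. The groups were Dahl rats of 4 weeks, Dahl rats of 6 weeks, SHR rats of 4 weeks and SHR rats of 6 weeks, with 2 rats each and 1 array per rat, 8 arrays in all. The Dahl rat is the Dahl SS (salt-sensitive) strain, which develops proteinuria spontaneously, whereas the SHR (spontaneously hypertensive rat) served as the non-proteinuric control. All rats were male and kept on a low-salt diet, no other treatment is named, and both strains become hypertensive. Each strain is 1 inbred background, so strain stands for every difference between them. The deposited values are log2 intensities, used as they are, with a median per array of 4.11 to 4.16. Correlations over the probe sets were 0.989 to 0.997 for rats within a group and 0.950 to 0.994 for rats of different groups.

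A probe set was chosen if all 4 arrays of one strain were at or above log2 6, all 4 of the other were at or below log2 4, and the annotation listed 1 gene for it. Gene families and single genes that were left out by name are given with the processing. Of 31042 probe sets, 15 met the values, 11 of them higher in Dahl rats and 4 higher in SHR rats. Of the 15, 4 had no gene listed, 1 had several, and 7 carried a symbol that was left out (Ogn on 2 probe sets, RT1-Ba on 2, RT1-Bb, Hhip and Akr1b8). This left 3 probe sets of 3 genes, of 14217 genes on the array. A gap of any size between the strains was common: on 50.3% of all probe sets the 4 Dahl and the 4 SHR values did not overlap, and 34.7% passed the test of Dahl minus SHR at an adjusted p of 0.05 (limma). That count, 10787 probe sets (3283 higher in Dahl rats and 7504 lower), depends on the processing and was 4740 after quantile normalization. It also changed widely with a single array left out, which leaves 1 rat in a group and fewer degrees of freedom. Gaps of at least 1 on the log2 scale were found on 195 probe sets, 122 higher in Dahl rats and 73 higher in SHR rats.

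The thresholds can be set beside the spread of values on these arrays: between 48.7% and 49.0% of the probe sets of an array were at or below 4, and between 33.7% and 35.3% were at or above 6. Of 23 genes of other tissues or of the other sex, such as those of pancreatic and pituitary hormones and of sperm and milk proteins, all 23 stayed at or below 4 on every array, from 1.62 to 3.61. Of 9 genes used by every cell, 8 were at or above 6 on every array. Levels of different probe sets are not on one scale, so these values place the thresholds and do not rank genes.

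The 3 genes do not belong to one textbook pathway. Mamdc2 encodes a secreted proteoglycan of the extracellular matrix with MAM domains, a fold found in cell surface and matrix proteins that bind one another. Nt5dc1 encodes a protein with a domain of the 5′-nucleotidase type, a family that removes phosphate from nucleotides, and its own substrate is little known. Tor1b encodes torsin B, an ATPase of the AAA+ family in the lumen of the endoplasmic reticulum and the nuclear envelope. It is a close relative of torsin A (Tor1a), the protein of an inherited dystonia, and both need membrane-bound cofactors to hydrolyse ATP. None of them is a textbook marker of a glomerular cell type.

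The 250 bases before the start of the 2 genes that gave signal in Dahl rats are shown, because the array reads transcripts and these windows hold the sequence next to where the transcripts begin. They are reference sequence from RefSeq, build GRCr8, minus strand, at chr1:230443015-230443264 for Mamdc2 and chr20:39763632-39763881 for Nt5dc1, and not sequence of either strain. No window is shown for Tor1b. Capitals mark matches on either strand to 3 promoter motifs, which do not overlap one another here. The GC box was searched as the letters GGGCGG. The box named for its letters was searched as CCAAT. The TATA box was searched as TATAAA.
Mamdc2: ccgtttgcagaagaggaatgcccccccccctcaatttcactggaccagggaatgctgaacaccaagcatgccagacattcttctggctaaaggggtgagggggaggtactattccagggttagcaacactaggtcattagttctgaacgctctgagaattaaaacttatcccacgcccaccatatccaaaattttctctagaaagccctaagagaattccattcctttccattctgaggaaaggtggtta
Nt5dc1: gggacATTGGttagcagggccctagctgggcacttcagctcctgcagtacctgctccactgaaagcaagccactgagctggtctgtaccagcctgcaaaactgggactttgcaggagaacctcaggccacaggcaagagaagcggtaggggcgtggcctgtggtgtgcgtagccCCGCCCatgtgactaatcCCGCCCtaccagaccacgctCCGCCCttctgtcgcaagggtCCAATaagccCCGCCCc

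The Nt5dc1 window held 4 matches to the GC box and 2 to the CCAAT box, and none to the TATA box. The Mamdc2 window held none of these letters. The Nt5dc1 window had 61.6% G and C and 9 CpG dinucleotides, whereas the Mamdc2 window had 47.2% and 3. Over 33465 windows of this length the medians were 51.2% and 5, and a match to the GC box was found in 30.5% of them, to the CCAAT box in 34.0% and to the TATA box in 12.9%. A match describes the letters only. RefSeq lists 2 starts for Mamdc2, and the window precedes the outermost of them.

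Mamdc2, the matrix proteoglycan gene, has 1 probe set. In Dahl rats it read 7.39 and 7.79 at 4 weeks and 7.55 and 8.14 at 6 weeks. In SHR rats it read 3.31 and 3.07 at 4 weeks and 3.45 and 3.95 at 6 weeks. All Dahl rats were high and all SHR rats low, and the nearest pair of arrays was 3.44 apart. The means were 7.72 ± 0.32 in Dahl rats and 3.44 ± 0.37 in SHR rats (SD, n = 4 per strain), a difference of 4.27 (standard error 0.20), which is 19.3-fold. The strain difference was 4.40 at 4 weeks and 4.14 at 6 weeks. The annotation lists no further probe set for this gene.

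Nt5dc1, the nucleotidase-domain gene, has 2 probe sets. The chosen one read 6.30 and 6.87 in Dahl rats of 4 weeks and 6.63 and 6.92 in Dahl rats of 6 weeks. In SHR rats it read 2.85 and 2.67 at 4 weeks and 2.63 and 2.63 at 6 weeks. The SHR rats formed a tight low group, and the lowest Dahl rat stood 3.45 above the highest of them. The means were 6.68 ± 0.28 and 2.69 ± 0.11 (SD, n = 4 per strain), a difference of 3.99 (standard error 0.15) or 15.8-fold. It was 3.82 at 4 weeks and 4.15 at 6 weeks.

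The other probe set of Nt5dc1 gave signal in every rat. It read 7.05, 7.08, 6.92 and 7.38 in the Dahl rats, given in the order 4 weeks then 6 weeks, and 7.36, 7.20, 7.27 and 7.20 in the SHR rats. The strains overlapped: 1 Dahl rat was above all SHR rats and the others were below them. The means were 7.11 ± 0.20 and 7.26 ± 0.076 (SD, n = 4 per strain), and the difference was -0.15 (standard error 0.11, 95% interval -0.44 to 0.14).

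Tor1b, the torsin B gene, has 2 probe sets as well, and its chosen one went the other way. It read 3.41 and 3.33 in Dahl rats of 4 weeks and 3.24 and 3.36 in Dahl rats of 6 weeks. In SHR rats it read 6.18 and 6.33 at 4 weeks and 6.65 and 6.02 at 6 weeks. Here the Dahl rats were the tight low group, and the lowest SHR rat lay 2.61 above the highest Dahl rat. The means were 3.34 ± 0.073 and 6.29 ± 0.27 (SD, n = 4 per strain), a difference of -2.96 (standard error 0.15), or 7.77-fold higher in SHR rats. It was -2.88 at 4 weeks and -3.04 at 6 weeks.

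The other probe set of Tor1b also gave signal in every rat. It read 7.07 and 7.03 in Dahl rats of 4 weeks and 7.31 and 7.28 in those of 6 weeks, and 6.83, 6.72, 7.17 and 7.43 in the SHR rats in the same order. The lowest and the highest of the 8 values were both from SHR rats, so the strains overlapped. The means were 7.17 ± 0.14 and 7.04 ± 0.32 (SD, n = 4 per strain), a difference of 0.14 (standard error 0.067, 95% interval -0.037 to 0.31). Which transcripts or exons the probe sets of Nt5dc1 and Tor1b cover was not analysed here. On the array, 31.8% of the genes (4525) have several probe sets. 

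**Figure D1:**
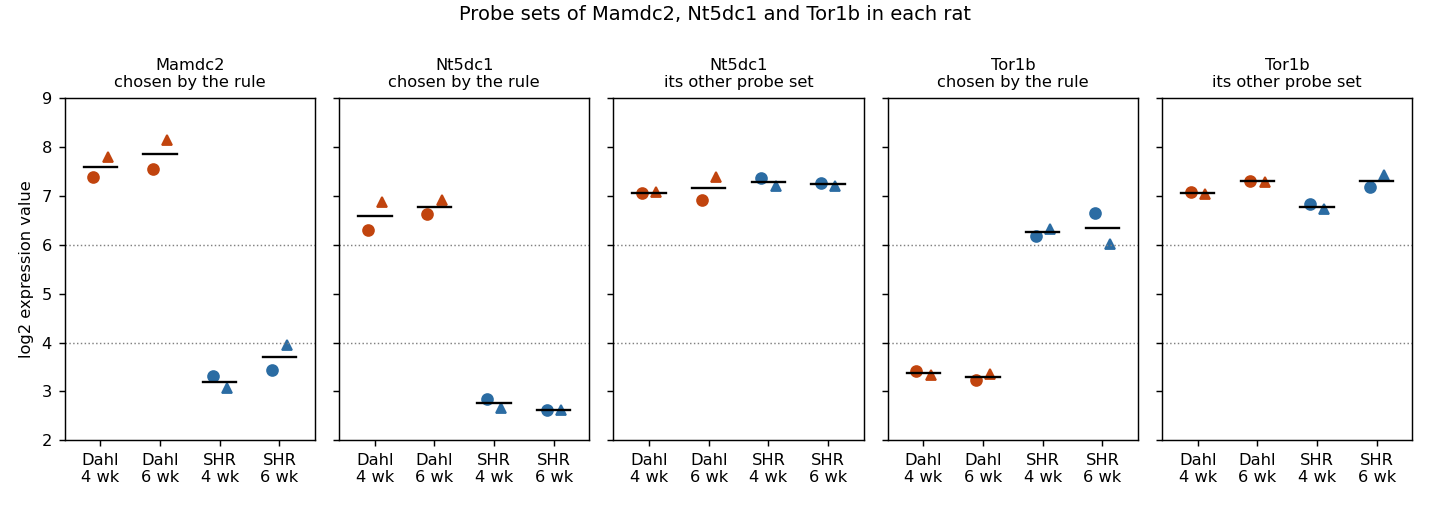
Log2 expression value (vertical axis) of the 5 probe sets of Mamdc2, Nt5dc1 and Tor1b in each rat by strain and age (horizontal axis; orange Dahl, blue SHR; circle replicate 1, triangle replicate 2; bar, group mean; dotted lines, the thresholds 4 and 6). By the rule of the choice, the chosen probe sets leave the space between 4 and 6 empty. The other probe sets of Nt5dc1 and Tor1b, on which the rule set no bound, lie between 6.72 and 7.43 in both strains.

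The thresholds cut through a continuous set of values. Tor1b met them by 0.021, the distance of its lowest SHR rat above 6. Mamdc2 met them by 0.047, the distance of its highest SHR rat below 4, and Nt5dc1 by 0.30. Just outside lay Ryr1, a calcium release channel of the sarcoplasmic reticulum, at 5.95 to 6.85 in Dahl rats and 2.86 to 3.13 in SHR rats. Vps13c, a lipid transfer protein, missed at 5.90 to 6.54 in Dahl rats and 2.81 to 2.86 in SHR rats. Mcub, a subunit of the mitochondrial calcium uniporter, was higher in SHR rats, at 5.77 to 6.17 against 3.14 to 3.56. Each of these 3 genes has 1 probe set, and they missed by 0.049, 0.099 and 0.23.

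**Figure D2:**
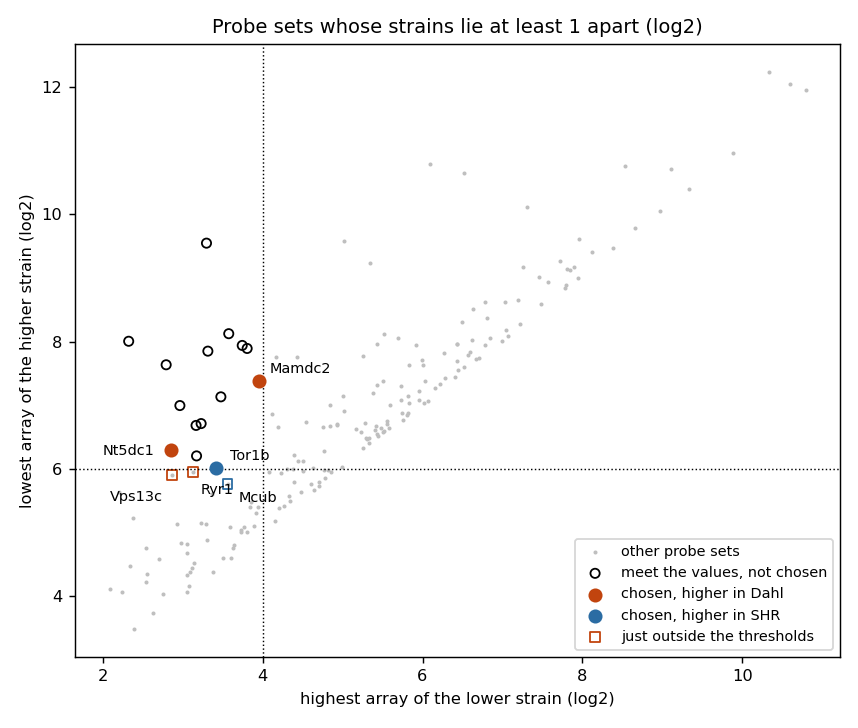
Lowest array of the higher strain (vertical axis, log2) against highest array of the lower strain (horizontal axis, log2) for the 195 probe sets whose strains lie at least 1 apart; dotted lines mark 6 and 4. Of the 15 probe sets in the upper left field, 3 were chosen (filled), and Tor1b sits on its lower edge with Ryr1, Vps13c and Mcub just outside (squares).

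The wider thresholds of 5.5 and 4.5 took in 14 genes with 1 probe set each, 9 higher in Dahl rats and 5 higher in SHR rats. Besides Mamdc2 and Nt5dc1, those higher in Dahl rats were Zeb2, a transcriptional repressor (3.91), Vps13c (3.41), Ryr1 (3.27), the phosphoprotein gene Arpp21 (3.20), Egln3, a prolyl hydroxylase of the hypoxia response (2.88), Tiparp, an ADP-ribosyltransferase (2.55), and the fibrillin gene Fbn2 (2.51). Those higher in SHR rats besides Tor1b were the phosphatase gene Dusp15 (-3.85), Mcub (-2.59), Gnas, which encodes a G protein subunit (-2.42), and Ccdc77 (-2.04). Of the 14 genes, 7 have other probe sets, 12 in all. On 4 of these 12 the strains were apart in the same direction, on 1 in the opposite direction, and on 7 they overlapped, beside the 50.3% of all probe sets on which the strains did not overlap.

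Ccdc77 was the gene whose other probe set came closest in size, at -2.08 against -2.04. For Arpp21 one other probe set gave 2.01 and the remaining one -0.0052. For Zeb2 all 4 others lay above 0, from 0.33 to 0.96, and on 2 of them the strains overlapped. For Gnas, whose locus makes several transcripts, one other probe set was higher in Dahl rats by 0.41 with no overlap, and one gave -0.16. The other probe set of Tiparp gave 0.099, with overlap. Mamdc2, Vps13c, Ryr1, Egln3, Fbn2, Dusp15 and Mcub have no other probe set. Nt5dc1 and Tor1b thus shared with Tiparp that the only other probe set overlapped between the strains. The comparison of their other probe sets was chosen after their values had been seen.

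**Figure D3:**
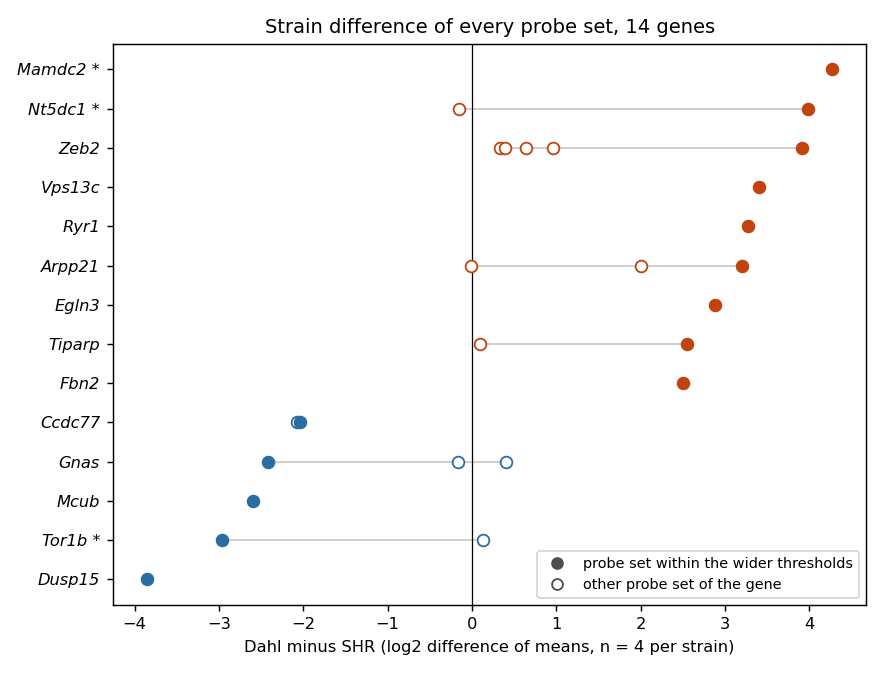
Difference of strain means, Dahl minus SHR in log2 units (horizontal axis, n = 4 rats per strain), for every probe set of the 14 genes within the wider thresholds (rows; an asterisk marks the 3 chosen genes). Filled points are the probe sets within the thresholds and open points the other probe sets, which lie at -0.15 for Nt5dc1 and 0.14 for Tor1b and at -2.08 for Ccdc77.

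The choice used no difference between the ages, and age differences were tested. It did bound the arrays of both ages, so a chosen probe set could not cross a threshold with age, and its age values are not free of the choice. The other probe sets of Nt5dc1 and Tor1b had no such bound. None of the 5 probe sets passed in either strain or in the interaction (limma, adjusted over all probe sets). Over all probe sets, 0.0805% passed for 6 minus 4 weeks in Dahl rats, 2.42% in SHR rats and 0.519% for the interaction, which asks whether the gap between the strains changed from 4 to 6 weeks. With 2 rats per group the intervals are wide, and they are given with each difference.

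The Mamdc2 probe set was higher at 6 weeks by 0.26 in Dahl rats (95% interval -0.49 to 1.00, adjusted p = 0.923 from limma) and by 0.51 in SHR rats (-0.23 to 1.26, adjusted p = 0.540). Its strain difference moved by -0.26 between the ages (-1.31 to 0.79, adjusted p = 0.952). For the chosen probe set of Nt5dc1 the age difference was 0.19 in Dahl rats (-0.35 to 0.74) and -0.14 in SHR rats (-0.68 to 0.41), with an interaction of 0.33 (-0.45 to 1.10, adjusted p = 0.862). For the chosen probe set of Tor1b it was -0.073 in Dahl rats (-0.62 to 0.47) and 0.083 in SHR rats (-0.46 to 0.63), with an interaction of -0.16 (-0.93 to 0.62, adjusted p = 0.977). Every one of these intervals held 0.

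The other probe set of Tor1b came nearest to passing. In SHR rats it went from 6.83 and 6.72 at 4 weeks to 7.17 and 7.43 at 6 weeks, and in Dahl rats from 7.07 and 7.03 to 7.31 and 7.28. The difference in SHR rats was 0.52 (95% interval 0.28 to 0.77), with an unadjusted p of 0.00275 and an adjusted p of 0.0738 (limma). In Dahl rats it was 0.25 (0.0018 to 0.49, adjusted p = 0.567), and the interaction was -0.28 (-0.62 to 0.067, adjusted p = 0.580). On the chosen probe set of the same gene, 1 SHR rat of 6 weeks was the highest of the 4 SHR rats and the other the lowest, and its interval in SHR rats, given above, holds 0.52 as well. The difference between both probe sets was not tested. The other probe set of Nt5dc1 differed by 0.084 in Dahl rats (-0.33 to 0.50) and by -0.048 in SHR rats (-0.46 to 0.37).

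**Figure D4:**
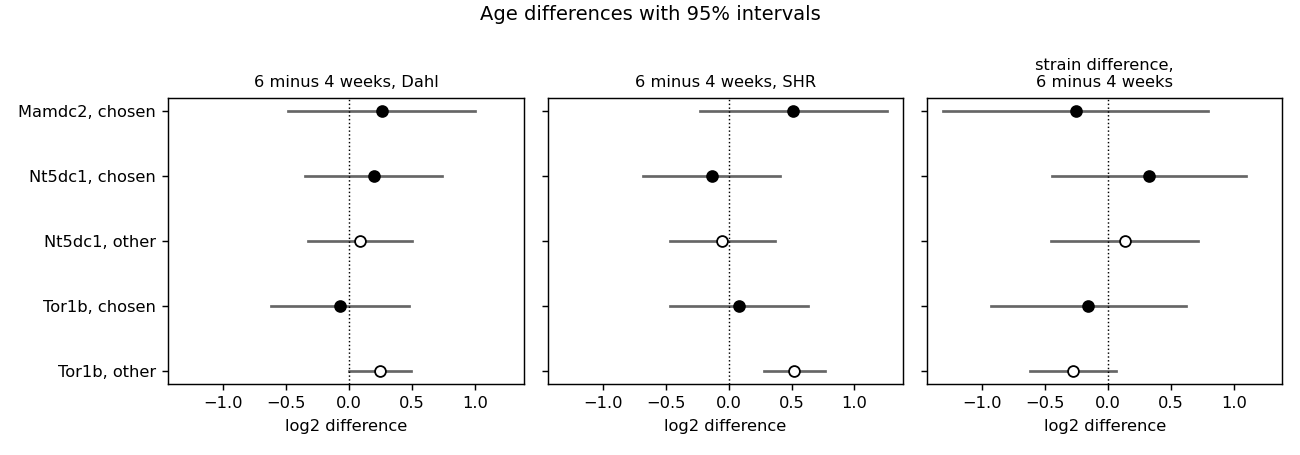
Log2 difference between 6 and 4 weeks in Dahl rats, in SHR rats, and the change of the Dahl minus SHR difference from 4 to 6 weeks (horizontal axes; points, limma estimates from 8 arrays; bars, 95% intervals) for the 5 probe sets (filled, chosen; open, other). The intervals of the other Tor1b probe set in Dahl rats (0.0018 to 0.49) and in SHR rats (0.28 to 0.77) lie above 0, and all others hold 0.

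Genes related to the 3 by name were not chosen by the rule, and their strain differences were tested on the brightest probe set of each gene. Of 6 genes of the torsin name stem, none was higher in Dahl rats, 2 were lower and 4 did not pass, with a median of -0.052 beside -0.053 over all probe sets. Both that passed encode membrane cofactors of torsins. Tor1aip1 (LAP1, of the inner nuclear membrane) was lower in Dahl rats, at -0.30 (standard error 0.049, limma adjusted p = 0.0196). Tor1aip2 (LULL1, of the endoplasmic reticulum) gave -0.39 (standard error 0.058, adjusted p = 0.0159). Tor1aip1 has 2 probe sets and Tor1aip2 has 4, and only the brightest of each is given here. Tor1a, which encodes torsin A, gave -0.16, Tor2a 0.052, Tor3a 0.11 and Tor4a 0.49, and none of them passed. A share of 2 in 6 is near the 34.7% over all probe sets. After quantile normalization the same 2 genes passed, beside 4740 of 31042 probe sets, so that nearness holds for the deposited values only. Neither cofactor gene passed without Dahl 4 weeks replicate 2, SHR 6 weeks replicate 1 or SHR 6 weeks replicate 2, Tor1aip1 did not without Dahl 4 weeks replicate 1, and Tor1aip2 did not without SHR 4 weeks replicate 2. Tor4a passed without Dahl 4 weeks replicate 1 (0.66). None of the 6 genes passed an age test in either strain.

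For the nucleotidase genes with Nt5 symbols, listed after their values had been seen, 7 were measured. Nt5dc2, which shares the domain of Nt5dc1, was higher in Dahl rats by 1.17 (standard error 0.17, adjusted p = 0.0147 from limma) and the cytosolic nucleotidase gene Nt5c by 0.50 (standard error 0.10, adjusted p = 0.0293). The means of Nt5dc2 were 4.90 ± 0.32 in Dahl rats and 3.73 ± 0.95 in SHR rats (SD, n = 4 per strain), the latter below log2 4. The pyrimidine nucleotidase gene Nt5c3a was lower, at -0.78 (standard error 0.14, limma adjusted p = 0.0239). The other 4 did not pass, and the median of the 7 was -0.083, beside -0.053 over all probe sets. A count of 3 in 7 stands beside the 34.7% of all probe sets that passed. After quantile normalization 2 of the 7 were higher and 2 lower, beside 4740 of 31042 probe sets that passed. Nt5e, the gene of the cell surface nucleotidase, gave -1.10 and did not pass, and its value rested on the Dahl rats of 6 weeks: it was -1.74 without replicate 1 (limma adjusted p = 0.00706) and -0.47 without replicate 2 (adjusted p = 0.0711). The age test in SHR rats was passed by Nt5dc2, which was higher at 6 weeks, and by no other gene of this list. Its strain difference of 1.17 is thus a mean over both ages, between which its SHR level changed. None of the 7 passed the strain test without SHR 6 weeks replicate 2, and without SHR 6 weeks replicate 1 only Nt5c3a did. Neither Nt5c nor Nt5c3a passed without Dahl 4 weeks replicate 1, Dahl 4 weeks replicate 2 or SHR 4 weeks replicate 2, Nt5c did not without Dahl 6 weeks replicate 2, and Nt5c3a did not without SHR 4 weeks replicate 1. Nt5c2 passed without Dahl 4 weeks replicate 2 and Nt5m without SHR 4 weeks replicate 1. Mamdc4, the 1 measured gene that shares its name stem with Mamdc2, gave -0.048 and did not pass.

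The 3 genes lie on 3 different chromosomes in RefSeq, build GRCr8. Of their nearest measured neighbours, 13 genes chosen after the values had been seen, the strain differences ran from -0.74 (Ptges) to 0.71 (Tspyl4). In the test of strain, 1 of the 13 was higher in Dahl rats, 4 were lower and 8 did not pass, again near the 34.7% of all probe sets. After quantile normalization 1 was higher (Tspyl4) and 1 lower (Klf9). The other 3 lower ones, Col10a1, Hs3st5 and Prrx2, read under log2 4 on every array, and their differences then were -0.0070, -0.014 and -0.086. Beside Mamdc2 lie Klf9, a transcription factor gene (-0.63, adjusted p = 0.0224 from limma), Smc5 (0.35), Ptar1 (-0.29) and Apba1 (0.23). Beside Nt5dc1 lie Tspyl1 (0.29), Tspyl4 (adjusted p = 0.0297), Frk (0.39) and Hs3st5 (-0.092), and the collagen gene Col10a1 overlaps it, with 2.00 to 2.08 on every array. Beside Tor1b lie Prrx2 (-0.16), Ptges, Tor1a and C3h9orf78 (-0.017). Tor1a, its close relative and near neighbour, read 7.67 ± 0.14 in Dahl rats and 7.83 ± 0.14 in SHR rats (SD, n = 4 per strain). No neighbour passed without Dahl 4 weeks replicate 2, Dahl 6 weeks replicate 2, SHR 4 weeks replicate 2, SHR 6 weeks replicate 1 or SHR 6 weeks replicate 2, each left out on its own.

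**Figure D5:**
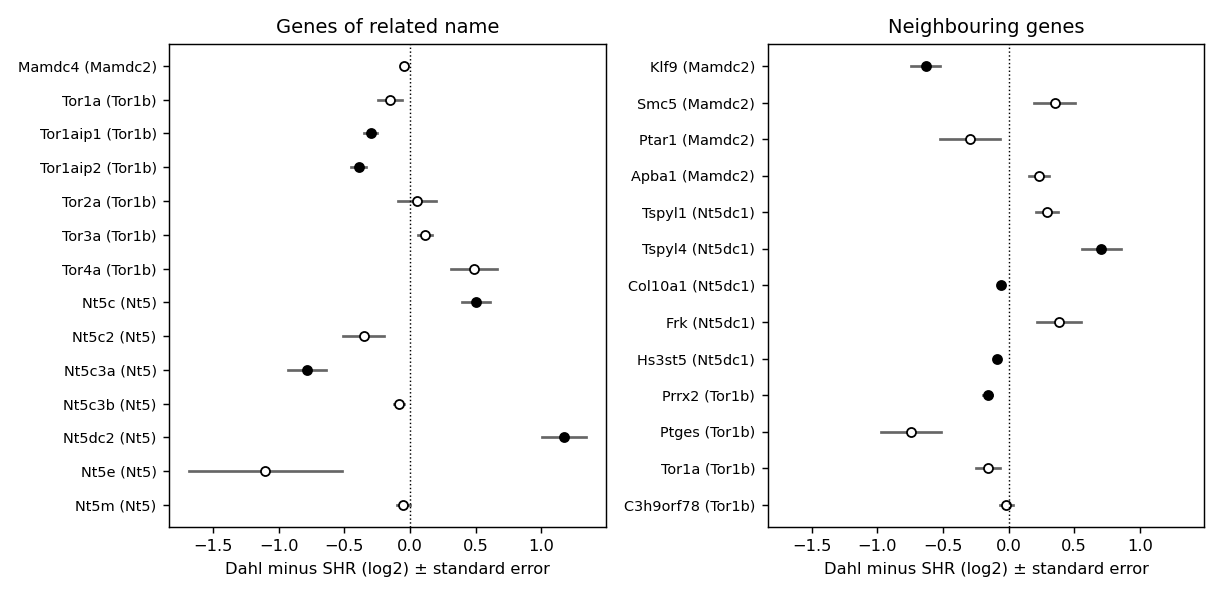
Dahl minus SHR (horizontal axes, log2 difference of means, n = 4 rats per strain; bars, standard error) for genes of related name (left) and for neighbours on the chromosome (right), with the chosen gene or list in parentheses and filled points for an adjusted p under 0.05 (limma). The left panel runs from -1.10 (Nt5e, which a single rat moves to -1.74 or -0.47) to 1.17 (Nt5dc2) and the right one from -0.74 to 0.71. The chosen probe sets, at 4.27, 3.99 and -2.96, were selected for a large difference, so a contrast in size with them was set by the choice.

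Scores of markers of the cells in the preparation also differed between the strains for most lists given here, and for a list of low signal as well. In bulk RNA, fewer cells of a type and less RNA per cell cannot be told apart. Of 14 podocyte markers, 12 were at or above log2 6 on all arrays and 1 was at or below 4 on all. Nephrin (Nphs1) read 11.84 to 12.65 and podocalyxin (Podxl) 11.55 to 12.25. The proximal tubule receptor gene Lrp2 read 11.70 to 12.64. Each list was scored per rat by how far its genes lay from their own 8-array means (the median of these deviations). Scores of 14 podocyte markers ran from -0.047 to 0.46 in Dahl rats and from -0.36 to -0.069 in SHR rats, and those of 13 endothelial markers from -0.032 to 0.62 and from -0.42 to -0.11. For 13 mesangial and smooth muscle markers they were 0.17 to 0.45 and -0.43 to -0.10, and for 22 proximal tubule markers -1.79 to 0.16 and 0.23 to 0.76. The distal nephron scores of 18 markers overlapped, at -1.001 to 0.096 and 0.033 to 0.73. The 23 low genes of other tissues also gave separate scores, at -0.050 to -0.017 in Dahl rats and 0.021 to 0.037 in SHR rats. So did 17 leukocyte markers, at -0.026 to -0.015 and 0.013 to 0.27. Of these, 7 were higher and 7 lower in Dahl rats (limma), and 8 stayed at or below log2 4. Scores of 13 striated muscle markers, 12 of them that low, were apart too. Those of 4 erythroid markers overlapped, as did those of 9 genes used by every cell (-0.053 to -0.00012 and -0.0050 to 0.060). In the strain test (limma) 5 podocyte and 7 endothelial markers were higher in Dahl rats and 0 lower. Of the mesangial markers 8 were higher and 1 lower, of the proximal tubule markers 2 and 2, and of the distal ones 0 and 7. Over all probe sets 34.7% passed, 3283 of 31042 higher in Dahl rats and 7504 lower, so counts in each direction stand beside unequal shares. The part of these shifts in the differences of Mamdc2, Nt5dc1 and Tor1b was not tested.

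The rat with the lowest tubule score, Dahl 6 weeks replicate 2, read 8.14 for Mamdc2, 6.92 for Nt5dc1 and 3.36 for Tor1b on the chosen probe sets, beside 7.55, 6.63 and 3.24 in the other Dahl rat of 6 weeks. With each rat left out in turn and with other settings of the values, the strain differences ran from 4.13 to 4.42 for Mamdc2, from 3.84 to 4.13 for Nt5dc1 and from -3.12 to -2.80 for Tor1b, sizes that the choice of these probe sets keeps large. Those of the other probe sets ran from -0.27 to -0.033 for Nt5dc1 and from 0.070 to 0.20 for Tor1b. The number of arrays limits the precision of all these values.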

How the data were processed

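Log2 expression values were taken as deposited and were not normalized again. The submitters' notes name RMA and GCRMA, both of which correct background, bring arrays to a common distribution and combine the probes of a set; for the choice between them, versions and scan dates the sources used here give nothing. The array has 31099 probe sets. After removal of 57 controls, 31042 entered the tests, and its annotation gave 1 gene to 20826 of these, several to 436 and none to 9780.

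Symbols starting with RT1-, Slc, Cyp, Gst, Ugt or Sult were left out of the selection, as were Hhip, Hjv, Bmp6, Ephx2, Akr1b8, Acox2, Myom2, Synpo2l, Ogn and Cd36. The genes, lists and tests were chosen with earlier results of these data known. The Nt5 list, the neighbours and the look at other probe sets within the wider thresholds were chosen after the values had been seen. Every chosen gene is named with all its arrays and probe sets, the 3 genes nearest the thresholds on each side by their margin, and genes of the same name stem by count. Neighbours and promoter windows came from RefSeq tables of GRCr8, to which all 3 genes matched by gene ID.

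The 4 group means were fitted with limma 3.58.1 in R 4.3.3 (4 residual and 0.921 prior degrees of freedom), with Benjamini-Hochberg adjustment over all probe sets at 0.05. Standard errors and 95% intervals come from this fit, which was checked on simulated data for age in Dahl rats. The labels call the arrays of a group biological replicates. The settings tried besides were a variance trend on intensity with robust estimation, quantile normalization, median centring, the brighter probe sets only and the replicate number as a block. Further ones were the arrays of 1 strain alone, each array left out, other thresholds, and the brightest probe set of a gene only. The last was the methods' t-test, which the study names for comparisons of this kind without naming a test for the arrays.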

Additional observations from a re-analysis of the deposited data

How the results depend on the processing

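The 3 genes met the rule after quantile normalization and after median centring. Leaving out an array can only add genes, since the rule asks for all arrays. Of 2 genes higher in Dahl rats and 1 higher in SHR rats, thresholds of 7 and 4 left 1 and 0, those of 6 and 3.5 left 1 and 1, and those of 5.5 and 4.5 gave 9 and 5. Taking only the brightest probe set of a gene left 1 (Mamdc2) and 0, since the brighter probe sets of Nt5dc1 and Tor1b read above 6 in both strains. Their strain differences were -0.15 and 0.14, of the other sign than those of the chosen ones, with intervals that hold 0. With an array left out the counts were 2 to 4 and 1 to 1. They were 4 without SHR 6 weeks replicate 1 (adding Nptx1 and Tiparp) and without SHR 6 weeks replicate 2 (adding Arpp21 and Zeb2), and 3 without Dahl 6 weeks replicate 2 (adding Vps13c).

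After adjustment, no age or interaction test of the 5 probe sets passed under any setting run. The lowest adjusted p was 0.0639 (limma after median centring), for the other probe set of Tor1b in SHR rats. Unadjusted results of single probe sets under these settings are not covered by this statement. Counts over all probe sets moved far more. For age in Dahl rats 25 passed (2718 at an unadjusted p under 0.05), 47 with the brighter probe sets only, 0 with the Dahl arrays alone and 0 to 1043 with an array left out (0 without any one SHR rat, 1043 without Dahl 6 weeks replicate 1). For age in SHR rats 751 passed, 1205 with the brighter ones and 64 to 940 with an array left out (64 without SHR 6 weeks replicate 1, 129 without replicate 2). The interaction gave 161 and 7 to 540 (7 without SHR 6 weeks replicate 1, 540 without Dahl 6 weeks replicate 1). The strain difference gave 10787, with 4740 after quantile normalization and 2286 to 11471 with an array left out, the highest being without Dahl 6 weeks replicate 1 and the lowest without SHR 6 weeks replicate 2. The methods' t-test gave 1374 for age in Dahl rats and 3947 in SHR rats unadjusted, and 0 in each after Benjamini-Hochberg. With the replicate block, 3, 360, 31 and 5598 passed for these 4 comparisons; deviations of same-numbered rats correlated at -0.23 to 0.24, so the number was not taken as a pairing. Calls of related and neighbouring genes were lost in 2 to 10 of 12 settings.

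Low signal limits the folds: at or below log2 4 a value does not show that RNA is absent, so their sizes are uncertain. With 2 rats per strain and age, age differences within the intervals given cannot be told from none.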
